A study of Mus musculus with 4 samples.

Results

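Plasminogen activation, endothelin and Ccn2 are described here through 6 mouse genes that have been linked to aldosterone in fibrinolysis and fibrosis: Plaur, Plau, Plat, Edn1, Ece1 and Ccn2. Their probe sets were taken where the platform annotation gave 1 gene symbol equal to one of these names, which found all 6 of the 18193 genes named on the array, through 10 of 34945 probe sets. For each gene the brightest probe set by mean log2 signal leads. The cells were mDCT, an immortalised mouse line from the distal convoluted tubule, all transfected to overexpress human mineralocorticoid receptor (hMR, with a FLAG tag), through which aldosterone acts on transcription. At 48 h after transfection spironolactone, which blocks this receptor, or ethanol was added, and 2 h later aldosterone or ethanol for 3 h. The dose series had 1 library each for ethanol, 1 nM and 100 nM aldosterone. A further library had 5 µM spironolactone before 100 nM aldosterone and is called spironolactone below. No library received the antagonist alone, and every library, the ethanol one included, came from receptor-transfected cells. With 1 library per treatment no difference could be set against replicate error: there is no test, and each difference is one between 2 arrays.

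Plasminogen activators are serine proteases that turn plasminogen into plasmin, the enzyme that dissolves fibrin and cuts matrix proteins. Urokinase works at the cell surface on its receptor, and in the kidney plasmin can cut and activate the epithelial sodium channel. Endothelin-1 is made as a precursor that endothelin-converting enzyme cuts to the active peptide, which acts back on the tubule to lower sodium reabsorption. Ccn2 encodes a matrix-associated protein, long called connective tissue growth factor, that accompanies TGF-beta signalling and renal fibrosis.

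The arrays had been scaled to the same level, with a trimmed mean signal of 500.0 in each, and median signals between 58.9 and 61.7. A gene entered the comparisons where its mean log2 signal reached the array-wide median, equal to a signal of 55.9, which 11057 genes did, all 6 members among them. Of the distal tubule and epithelial markers, 8 of 14 measured were above that filter. The kidney cadherin gene Cdh16 had a signal of 2406 with spironolactone and 2667, 2463 and 2510 with ethanol, 1 nM and 100 nM aldosterone. Slc12a3, the sodium chloride cotransporter that defines this segment, stayed under the filter in all 4 libraries, at 4.35 with spironolactone and 3.93, 17.2 and 12.1 along the doses. Of the markers of other cell types, 4 of 14 endothelial, 6 of 12 leukocyte and 2 of 13 fibroblast and mesangial genes were above the filter.

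Across the 4 treatments Ccn2 differed most among the bright members. It was 1.68-fold higher with 100 nM aldosterone than with ethanol and 1.94-fold higher than with 1 nM, and it stood 1.45-fold above ethanol with spironolactone. The brightest probe set of Ece1 was higher than in ethanol by a similar amount in all 3 hormone-treated libraries, between 1.44-fold and 1.47-fold. Its dimmer probe sets did not repeat this. Edn1 was 1.72-fold higher with 1 nM aldosterone than with ethanol, at signals near the filter. The leading probe sets of Plaur, Plau and Plat each had their lowest signal with 100 nM aldosterone, by 1.18-fold, 1.23-fold and 1.06-fold against ethanol.

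Members were counted where they differed by at least 1.5-fold. With 1 nM aldosterone 1 of 6 members (Edn1) was higher than in ethanol by that much, against 2.61% of all genes that entered, and 0 were lower, against 2.07%. Edn1 entered at a mean signal of 59.9, and its entry depended on that same 1 nM signal. With 100 nM aldosterone 1 of 6 (Ccn2) was higher than in ethanol, against 2.39%, and 0 were lower, against 1.72%. Between spironolactone and 100 nM aldosterone alone 0 members were higher, against 1.83%, and 0 lower, against 2.51%. For 100 nM against 1 nM aldosterone 1 member (Ccn2) was higher, against 2.04%, and 0 lower, against 1.96%. For spironolactone against ethanol 0 were higher, against 2.17%, and 0 lower, against 2.03%. Counts of 0 or 1 in 6 are too few to set apart from these shares. The median log2 difference of the 6 members was 0.11 for 1 nM against ethanol, 0.15 for 100 nM against ethanol and 0.02 for spironolactone against 100 nM alone, where the medians of all genes that entered were -0.0064, -0.0046 and -0.0027.

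Large differences are more frequent at low signal, so each member was also set beside genes of like signal. Of genes between the 50th and 75th percentile of signal, 6.48% exceeded ethanol by at least 1.5-fold at 1 nM aldosterone and 6.02% at 100 nM. Between the 75th and 90th percentile these shares were 0.47% and 0.297%, and above the 90th percentile 0.104% and 0.138%. Plau and Edn1 lie in the lowest of these ranges, Plaur and Ece1 in the middle one, and Plat and Ccn2 in the highest. The central 95% of log2 differences for 100 nM aldosterone against ethanol ran from -0.69 to 0.89 in the lowest range, from -0.35 to 0.32 in the middle one and from -0.22 to 0.21 in the highest.

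**Figure D1:**
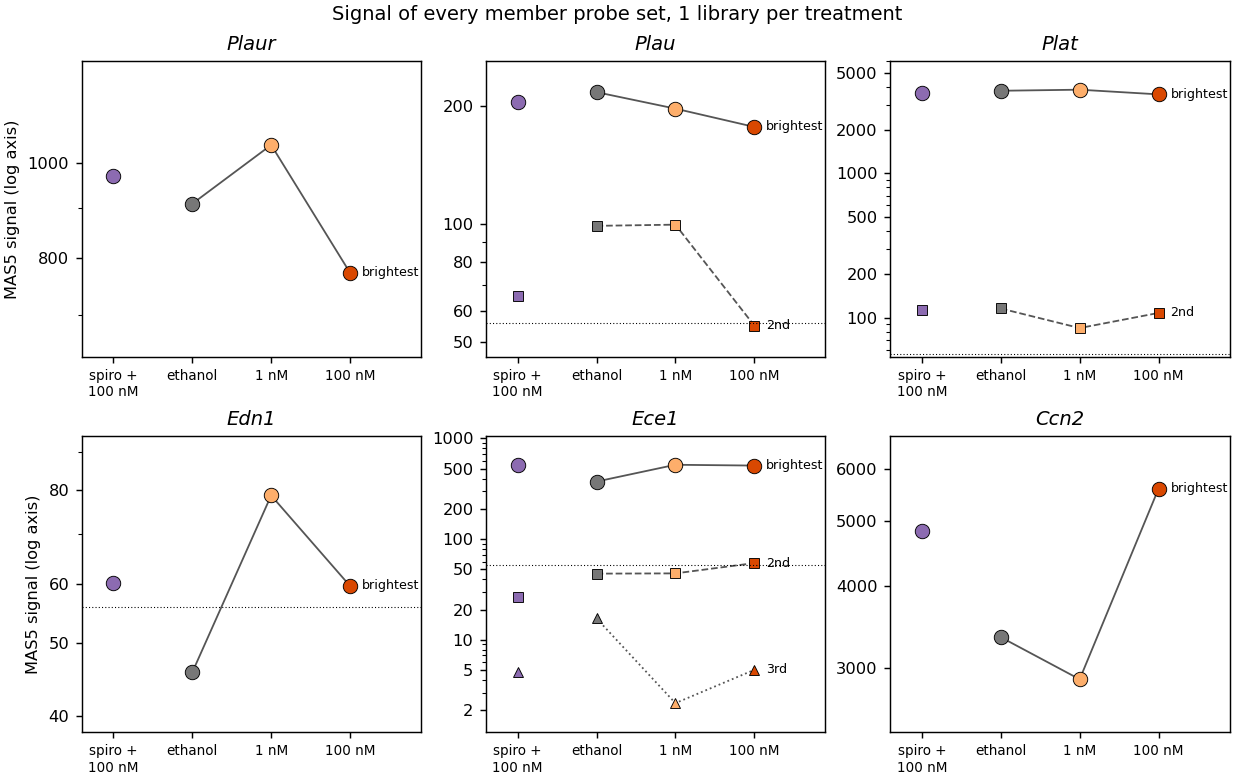
MAS5 signal (log axis) of all 10 probe sets of the 6 genes in the spironolactone library and along ethanol, 1 nM and 100 nM aldosterone, 1 point per library, with lines joining the dose series of each probe set. The dotted line is the filter at a signal of 55.9, drawn where it falls in a panel. Ccn2 is highest at 100 nM, the brightest Ece1 probe set is lowest in ethanol, and the brightest probe sets of Plaur, Plau and Plat are lowest at 100 nM.

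Plaur encodes the urokinase receptor, a membrane-anchored protein that holds urokinase at the cell surface. Its single probe set had a signal of 969 with spironolactone, and 909 with ethanol, 1044 with 1 nM and 773 with 100 nM aldosterone. The 100 nM library was the lowest and the 1 nM library the highest, with ethanol and spironolactone between them. The doses therefore lay on opposite sides of ethanol, by log2 differences of 0.20 at 1 nM and -0.23 at 100 nM. The 100 nM library differed from 1 nM by -0.43, and 45 of the 4046 genes in the same signal range, Plaur included, differed by as much in that direction. Spironolactone was higher than 100 nM aldosterone alone by 0.33, as 130 of 4046 genes were, and lay 0.09 above ethanol. The comparisons share libraries. White blood cells carry much of this receptor, and the summed signal of the 12 leukocyte markers was 2262 with spironolactone, and 2486, 2593 and 2529 along the doses. The sum too was highest with 1 nM aldosterone, but its brightest genes, Csf1r and Cd14, were not. Csf1r, the receptor of a macrophage growth factor, had 864 with spironolactone, and 1012, 1098 and 1123 along the doses, and Cd14, a receptor for bacterial lipopolysaccharide, had 923, and 973, 981 and 990. Both were highest with 100 nM, where Plaur was lowest. Cd74, which pairs with class II antigen-presenting molecules, was lowest there, at 80.3 with spironolactone and 75.8, 74.3 and 39.5 along the doses. Laptm5 was also lowest with 100 nM, at 98.4 with spironolactone and 86.1, 95.1 and 78.5 along the doses. Coro1a was highest with 1 nM, as Plaur was, with log2 differences from ethanol of 0.31 at 1 nM and 0.12 at 100 nM. Cd68 was highest in ethanol, at 49.6 with spironolactone and 71.7, 56.4 and 50.9 along the doses. Ptprc and Itgam, which define leukocytes, stayed under the filter in all 4 libraries. Whether the mDCT cultures held any such cells, and their part in the Plaur values, was not tested. In RNA from whole cultures, fewer cells of a type and less RNA per cell cannot be told apart.

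A promoter sequence was available for 3 of the 6 members, Plaur, Edn1 and Ece1, from RefSeq on GRCm38.p6, as the 250 bases before and 50 bases after a start site. Each window was searched on both strands for AGAACA, the core element bound by corticosteroid receptors, and for the full palindromic corticosteroid response element, of which that core is a part. The other motifs were TGANTCA for AP-1, GGAATG for TEAD factors, GTCTAGAC for SMAD proteins, the TATA box TATAAA, and GATAAG for GATA factors. The Plaur window, chr7:24462233-24462532 on the plus strand, is shown because Plaur stood outside the central 95% of genes of its signal between the doses. It held 1 of these motifs, TGACTCA, starting 69 bases before the start site and given in capitals.
Plaur promoter: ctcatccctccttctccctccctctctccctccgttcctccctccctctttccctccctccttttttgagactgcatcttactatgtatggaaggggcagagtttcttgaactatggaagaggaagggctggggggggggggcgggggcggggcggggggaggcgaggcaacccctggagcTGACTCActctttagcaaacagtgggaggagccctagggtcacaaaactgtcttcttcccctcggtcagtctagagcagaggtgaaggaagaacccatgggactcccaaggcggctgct
Among all 32851 promoter windows of the RefSeq set 7.81% held an AP-1 motif and 19.0% the corticosteroid core element, whose letters are not in the Plaur window. A match is a description of the sequence and not a bound site.

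Plau encodes urokinase itself. Its brighter probe set had a signal of 205 with spironolactone, and 217, 197 and 177 with ethanol, 1 nM and 100 nM aldosterone. The second had 65.8 with spironolactone, and 99.1, 99.8 and 55.2 along the same series. Both probe sets were lowest at 100 nM, and in both the spironolactone library lay between the 100 nM and the ethanol library. They parted in size: the log2 difference of 100 nM aldosterone from ethanol was -0.29 in the brighter probe set and -0.84 in the dimmer, where the 100 nM signal lay just under the filter. With that signal raised to the filter the dimmer probe set was at least 1.77-fold lower than in ethanol. In the signal range of Plau 659 of 4121 genes were as low as its brighter probe set in this comparison. Spironolactone was above 100 nM aldosterone alone by 0.21 in the brighter and 0.25 in the dimmer probe set.

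Plat encodes tissue-type plasminogen activator, the secreted activator that works on fibrin. The signal of its brighter probe set was 3609 with spironolactone, and 3742, 3806 and 3532 with ethanol, 1 nM and 100 nM aldosterone. The 4 libraries lay within 1.08-fold of each other, with 100 nM again the lowest. The log2 difference of 100 nM from ethanol was -0.08, inside the central 95% for genes of its signal, and 525 of 2890 genes there were as low. The dimmer probe set had 113 with spironolactone, and 116, 84.5 and 108 along the doses, so its lowest library was 1 nM, at a log2 difference of -0.45 from ethanol. Of the 5 probe sets of Plaur, Plau and Plat together, 4 were lowest with 100 nM aldosterone. Counted by leading probe set, 3 of the 6 members were lowest there, as were 25.2% of all genes that entered. That count is too small to set apart from this share. Probe sets of 1 gene measure the same transcript pool and are not independent.

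**Figure D2:**
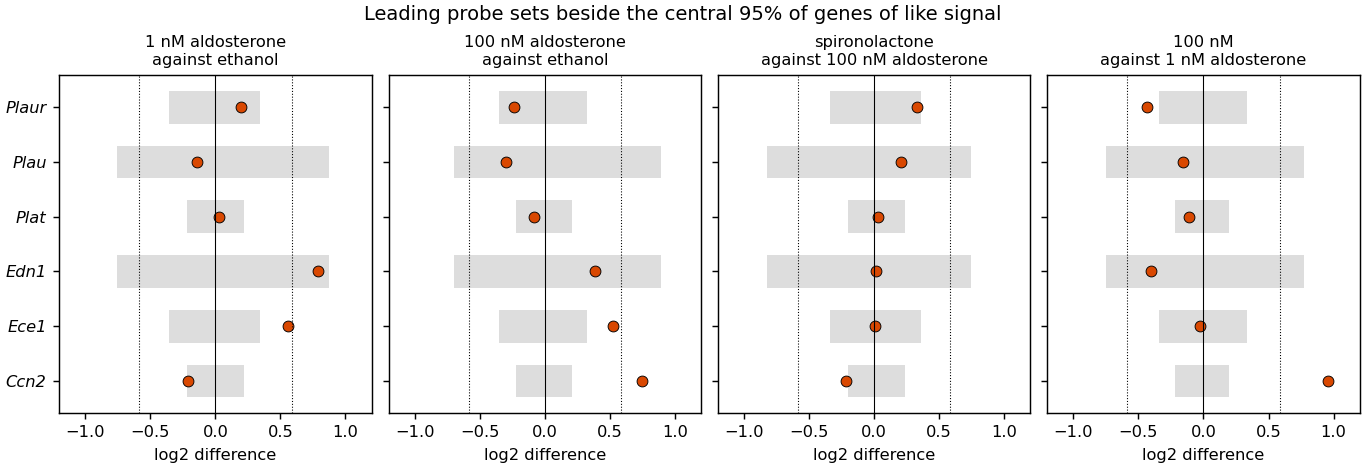
Log2 difference of the leading probe set of each member (points) in 4 comparisons, over the central 95% of genes in the same range of signal (grey bars); dotted lines mark 1.5-fold. Ece1 lies to the right of its bar in both comparisons with ethanol, and Ccn2 to the right of its bar for 100 nM aldosterone against ethanol and against 1 nM, while Plaur lies left of its bar between the doses.

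Other genes of plasminogen activation and fibrinolysis were read from a list of 28, of which 8 were above the filter, 16 measured under it and 4 not used here. With 100 nM aldosterone 1 of the 8 was at least 1.5-fold higher than in ethanol and 0 were lower, against 2.39% and 1.72% of all genes that entered. The counts were the same for 1 nM, against 2.61% and 2.07%. The list's median was -0.08 for 100 nM and -0.04 for 1 nM, against the medians of all genes given above. The gene past 1.5-fold was Serpinf2, which encodes alpha-2-antiplasmin, the main inhibitor of plasmin. Its signal was 78.9 with spironolactone, and 15.3, 68.8 and 130 along the doses. The mean lay at the 50.4th percentile, just over the filter, so its entry depended on the libraries in which it was high, 100 nM among them. Against the filter it was at least 2.32-fold higher with 100 nM aldosterone than with ethanol and at least 1.23-fold higher with 1 nM. With spironolactone it was 1.64-fold lower than with 100 nM alone. Plg, the gene of plasminogen, was under the filter in all 4 libraries. Among 11 genes above the filter that encode partners of the urokinase receptor, such as integrins and the receptors that clear urokinase, 0 were past 1.5-fold against ethanol at either dose, beside the same shares of all genes. That count rests on the brightest probe sets: with the median over probe sets 3 of the 11 were past 1.5-fold at 100 nM, and the second probe sets of Itga3, Mrc2 and Sorl1 differed from ethanol there by -1.74, 1.59 and 1.79. With that median 466 of all 11057 genes that entered were higher and 393 lower at 100 nM, more than with the brightest probe sets. Between spironolactone and 100 nM aldosterone alone the integrin subunit Itga5 was higher by 0.72 and the sorting receptor Sorl1 lower, with a difference of -0.85, in 1 of 11 genes each, against 1.83% and 2.51% of all genes. Both signals lay near the filter, and against the filter Sorl1 was at least 1.42-fold lower. The second probe set of Itga5 differed by 0.07 and that of Sorl1 by 1.08, the opposite direction.

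Edn1 encodes the endothelin-1 precursor. Its single probe set had a signal of 60.2 with spironolactone, and 45.7 with ethanol, 78.7 with 1 nM and 59.6 with 100 nM aldosterone. Ethanol was the lowest library and 1 nM the highest, while spironolactone and 100 nM alone were within 1.01-fold of each other. The log2 differences from ethanol were 0.79 at 1 nM, 0.38 at 100 nM and 0.40 with spironolactone. The ethanol signal lay under the filter. With it raised to the filter Edn1 was at least 1.41-fold higher with 1 nM and at least 1.07-fold higher with 100 nM, so the 1.5-fold count for 1 nM rests on that dim signal. The 1 nM signal also carried the mean of Edn1 over the filter. In its signal range 136 of 4121 genes were as high as Edn1 with 1 nM aldosterone and 535 with 100 nM. Endothelium is a major source of endothelin-1. The summed signal of the 14 endothelial markers was 832 with spironolactone, and 853, 933 and 913 with ethanol, 1 nM and 100 nM aldosterone. The highest of these was also the 1 nM library. The 4 markers above the filter on average, Kdr, Flt1, Egfl7 and Eng, did not all move together. Kdr, Egfl7 and Eng had their lowest signal in ethanol, as Edn1 did, and Flt1 had its highest there. Egfl7 had 203 with spironolactone, and 184, 208 and 213 along the doses, and Eng had 175, and 124, 171 and 152. The growth factor receptor gene Kdr had 83.1 with spironolactone, and 51.1, 73.1 and 85.1 along the doses, and its relative Flt1 had 227, and 278, 234 and 178, so with 100 nM they were past 1.5-fold from ethanol in opposite directions. Cdh5 and Pecam1, which define endothelial cells, stayed under the filter in all 4 libraries. Whether the mDCT cultures held any such cells, and their part in the Edn1 values, was not tested.

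The promoter windows of Edn1 and of Ece1 are shown together because the brightest probe sets of both genes had their lowest signal in ethanol. The Edn1 window is chr13:42301226-42301525 on the plus strand, and capitals mark CATTCC, matching the TEAD motif on the other strand and starting 207 bases before the start site, and CTTATC, matching the motif of GATA factors on the other strand and starting 7 bases after it. Ece1 has 4 start sites in the table, and the probe sets could not be tied to one of them. The last, chr4:137920543-137920842 on the plus strand, is shown because it alone among the 4 held any motif searched, the core element AGAACA as TGTTCT on the other strand, starting 104 bases before the start site.
Edn1 promoter: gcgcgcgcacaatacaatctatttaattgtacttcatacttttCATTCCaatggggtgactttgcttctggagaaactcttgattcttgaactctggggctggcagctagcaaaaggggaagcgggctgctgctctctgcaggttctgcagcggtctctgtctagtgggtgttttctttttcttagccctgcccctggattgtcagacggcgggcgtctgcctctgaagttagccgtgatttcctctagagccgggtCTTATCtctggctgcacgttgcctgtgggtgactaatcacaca
Ece1 promoter, last start site: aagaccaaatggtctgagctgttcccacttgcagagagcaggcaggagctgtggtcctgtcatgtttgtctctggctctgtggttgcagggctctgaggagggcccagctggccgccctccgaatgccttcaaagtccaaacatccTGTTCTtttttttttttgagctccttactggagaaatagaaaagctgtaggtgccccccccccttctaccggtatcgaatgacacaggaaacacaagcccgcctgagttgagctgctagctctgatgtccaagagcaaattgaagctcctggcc
The core element AGAACA was in 19.0% of all promoter windows, and Ece1 had 4 windows in which it could be found. TEAD motifs were in 14.7% of all promoter windows and GATA motifs in 7.44%. The TATA box, found in 13.6%, the SMAD palindrome, in 0.213%, and the full corticosteroid palindrome, in 0.0091%, were in no window of the 3 genes.

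Ece1 encodes endothelin-converting enzyme 1, the membrane protease that frees active endothelin from its precursor. Its brightest probe set had a signal of 539 with spironolactone, and 373 with ethanol, 548 with 1 nM and 538 with 100 nM aldosterone. The hormone-treated libraries lay within 1.02-fold of each other and all above ethanol. Against ethanol the log2 differences were 0.55 at 1 nM, 0.53 at 100 nM and 0.53 with spironolactone, just short of 1.5-fold, which is 0.58 on this scale. In its signal range 26, 17 and 20 of 4046 genes were as high in the 3 comparisons. These 3 comparisons share the ethanol library and are not independent of each other. Spironolactone differed from 100 nM aldosterone alone by 0.0041. The other probe sets did not repeat the pattern. The second had 26.8 with spironolactone, and 45.5, 45.7 and 57.9 along the doses, with 1 of these 4 signals above the filter. The third had 4.78 with spironolactone, and 16.3, 2.35 and 5.04 along the doses, all under it.

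In the rest of the endothelin system 7 of 14 measured genes were above the filter. Against ethanol 1 of the 7 was at least 1.5-fold lower at each dose, against 2.07% of all genes that entered at 1 nM and 1.72% at 100 nM, and 0 were higher, against 2.61% and 2.39%. The median was -0.16 at 100 nM and -0.02 at 1 nM. The gene was Edn3, which encodes another endothelin peptide, with a signal of 137 with spironolactone, and 147, 79.3 and 68.8 along the doses. Its log2 difference from ethanol was -0.89 at 1 nM and -1.10 at 100 nM, the opposite direction to Edn1, while spironolactone was higher than 100 nM alone by 0.99. Its second probe set differed by 0.84 and 0.98 from ethanol, and by -2.90 for spironolactone against 100 nM alone. The direction therefore depends on the probe set in all 3 comparisons. Between spironolactone and 100 nM alone 2 of the 7, Edn3 and Nos1, were higher, against 1.83% of all genes, and 0 were lower, against 2.51%. Nos1, the neuronal nitric oxide synthase, was higher with spironolactone than with 100 nM alone by 0.84, at 187 against 105, and its second probe set by 1.44. The receptor gene Ednrb stayed below the filter on average.

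Ccn2 had 1 probe set, with a signal of 4835 with spironolactone, and 3342 with ethanol, 2887 with 1 nM and 5602 with 100 nM aldosterone. The 100 nM library was the highest, spironolactone came next, and 1 nM was the lowest. The log2 difference from ethanol was 0.75 at 100 nM and -0.21 at 1 nM, and 100 nM was above 1 nM by 0.96. Among 2890 genes above the 90th percentile of signal, Ccn2 was 1 of 2 that differed by as much from ethanol at 100 nM, and 1 of 2 between the doses. At 1 nM, 79 of the 2890 were as low. Spironolactone differed from 100 nM aldosterone alone by -0.21, as low as in 63 of 2890 genes, and stood 0.53 above ethanol, as high as in 6. The summed signal of the 13 fibroblast and mesangial markers, cells that make Ccn2 in the kidney, was 339 with spironolactone, and 512, 595 and 546 along the doses. It was highest with 1 nM, where Ccn2 was lowest. Of its 2 genes above the filter, Acta2 was above ethanol by 0.72 at 1 nM and 0.81 at 100 nM, and the muscle filament gene Des had 60.3 with spironolactone, and 137, 164 and 156 along the doses. Pdgfra, Dcn and Lum stayed under the filter in all 4 libraries. Whether the mDCT cultures held any such cells, and their part in the Ccn2 values, was not tested.

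Over the 4 libraries the genes with the profile nearest to Ccn2 were Akap12, Tsc22d3 and Sgk1. Nearness was the Euclidean distance between log2 profiles centred on their own mean, among 6935 genes above the 75th percentile of signal, and 4 points per gene make it a description. Akap12, a kinase anchor protein, lay at a distance of 0.21, with a signal of 4930 with spironolactone, and 3284, 3396 and 5495 along the doses. Tsc22d3, the gene of the steroid-induced regulator GILZ, lay at 0.22 and Sgk1, a kinase that raises sodium channel activity, at 0.35. At 100 nM aldosterone Sgk1 was above ethanol by 1.18, the circadian gene Per1 by 1.19, Tsc22d3 by 0.94, Klf9 by 0.45 and Fkbp5 by 0.40. With spironolactone the same genes stood above ethanol by 0.83, 0.60, 0.48, 0.28 and 0.11. The second probe set of Fkbp5 differed from ethanol by 0.32 with spironolactone, and 0.07 and 0.72 at 1 nM and 100 nM, and that of Klf9 by 0.36, and -0.11 and 0.33. By brightest probe sets Ccn2, at 0.75 and 0.53, stood between Tsc22d3 and Klf9 at 100 nM. The second probe set of Tsc22d3 differed from ethanol by 0.63 at 100 nM, which is under Ccn2, and by 0.41 with spironolactone. At 1 nM Ccn2 differed by -0.21, whereas Sgk1 differed by 0.22, Per1 by -0.04 and Tsc22d3 by -0.02. The nearest profiles to Edn1, the other member that spanned at least 1.5-fold, were those of Ly75, Crat and Rreb1, at distances of 0.11, 0.12 and 0.14 among 6936 genes.

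**Figure D3:**
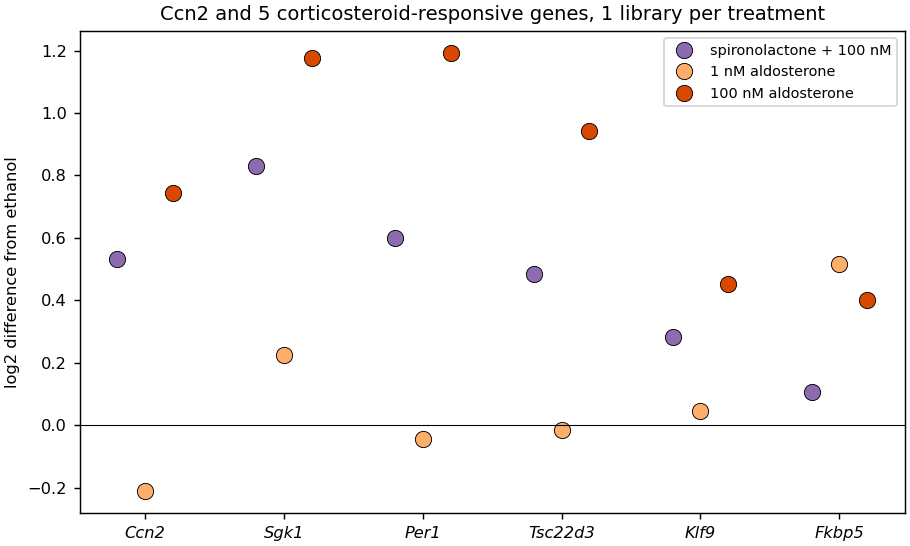
Log2 difference from ethanol of Ccn2 and 5 corticosteroid-responsive genes with spironolactone plus 100 nM aldosterone, 1 nM and 100 nM aldosterone, 1 point per library. The brightest probe sets are drawn. In Ccn2, Sgk1, Per1, Tsc22d3 and Klf9 the 100 nM point is the highest and the spironolactone point is next, while in the second Klf9 probe set the spironolactone value is the highest. In Fkbp5 the 1 nM point is the highest, while in its second probe set the 100 nM value is.

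Ccn2 is also a target of the YAP and TEAD regulators, whose other targets and the CCN family gave a list of 32 genes with 27 above the filter. Of the 27, 0 were past 1.5-fold in either direction against ethanol at 1 nM or at 100 nM, where 2.61% and 2.39% of all genes that entered were higher and 2.07% and 1.72% lower, and their median was -0.03 at 100 nM and 0.0024 at 1 nM. The paralog Ccn1 had a signal of 5786 with spironolactone, and 5043, 5194 and 4461 along the doses, so its lowest library was the one in which Ccn2 was highest. Ankrd1, a cardiac ankyrin repeat protein used as a YAP readout, had 5442 with spironolactone, and 4887, 5140 and 4597 along the doses. Ccn1 and Ankrd1 were chosen after their values were seen. Of the genes named by rank, the kinase Lats2 was higher than in ethanol by 0.34 at 1 nM, and Tead4 differed by -0.45 at 100 nM, where its second probe set differed by 0.39. With spironolactone Ccn3, a growth-restraining family member, was higher than with 100 nM alone by 0.69, at 123 against 76.3, and its second probe set by 0.10.

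Of 32 matrix and fibrosis genes, 24 were above the filter. At each dose 1 of the 24 was at least 1.5-fold higher than in ethanol, against 2.61% of all genes that entered at 1 nM and 2.39% at 100 nM, and 0 were lower, against 2.07% and 1.72%, with medians of 0.0021 at 100 nM and -0.02 at 1 nM. The gene was Acta2, smooth muscle actin, a mark of contractile fibroblasts, with a signal of 77.0 with spironolactone, and 62.0, 102 and 109 along the doses. Between spironolactone and 100 nM alone 1 of 24 was lower, the oxidase gene Nox4 at 59.5 against 90.5, and 0 were higher, beside 2.51% and 1.83% of all genes. The second probe sets of Acta2 and Nox4 differed by 1.15 and -0.32 in that comparison, against -0.50 and -0.60 for those used.

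**Figure D4:**
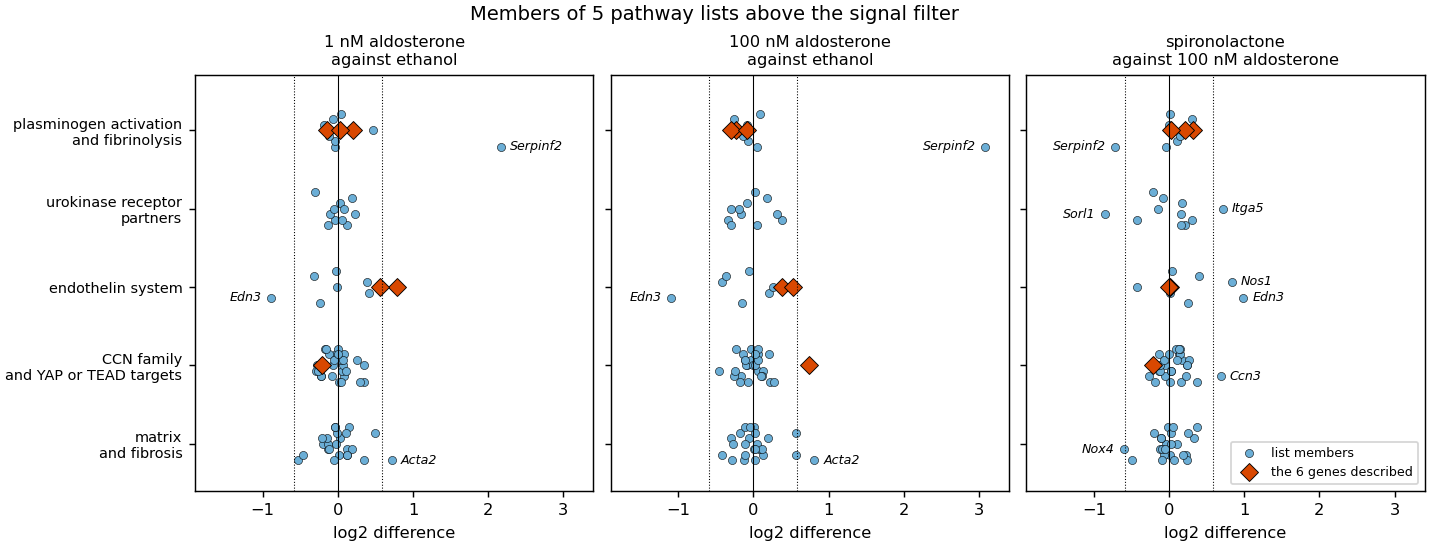
Log2 differences of the members of 5 gene lists that were above the signal filter (circles), with the 6 genes described here as diamonds in the row of their pathway, in 3 comparisons; dotted lines mark 1.5-fold and genes past it are named. For 100 nM aldosterone against ethanol Ccn2 lies right of the 27 circles of its row, and Serpinf2 stands alone at the right of the plasminogen row.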

How the data were processed

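Gene expression was measured on 1 Affymetrix 3' array per treatment, from biotin-labelled cRNA made from 250 ng of total RNA, per the labels' protocols. The deposited values are linear probe set intensities that the authors computed in MAS5, per the submitters' processing notes. Its version, its scaling target and any detection calls were not given in the sources used here. Each of the 4 value columns matched a sample by name.

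Of 45101 probe sets 64 were controls and were left out; 932 with several symbols and 9160 without an entry in the platform annotation were given no name. Differences are log2 signal of one library minus another, with no pseudocount and no further scaling. Filter and signal ranges used the 50th, 75th and 90th percentiles of mean log2 signal (signals of 55.9, 420 and 1775). Genes were named by rule: all members and probe sets; genes of the 5 pathway lists above the filter and past 1.5-fold in the comparisons of either dose with ethanol or of spironolactone with 100 nM alone, otherwise the 2 largest differences; 5 corticosteroid-responsive genes; and the 3 nearest profiles of members spanning 1.5-fold. The text names a part of these. Named outside the rule, after their values were seen, are the cell type markers, Plg, Ednrb, Ccn1, Ankrd1 and the genes whose second probe sets are given for the urokinase receptor partners. The members and lists were chosen with earlier results of these data known. The counting steps were tested on simulated data with planted changes well past 1.5-fold and a narrower spread than between these arrays. That checks the steps and not how reliable a 1.5-fold difference is here. Python 3.11.15, NumPy 2.4.6, pandas 2.3.3 and matplotlib 3.10.9 were used. Alternatives covered quantile normalization, median centring, a pseudocount of 32, signals raised to the filter, other probe sets, other filters and 2-fold in place of 1.5-fold. The number of arrays limits the precision.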

Additional observations from a re-analysis of the deposited data

How the results depend on the processing

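No paired analysis was possible because each treatment had 1 library, and for the same reason no library could be left out. Of 90 member counts under the alternatives, 76 stayed as reported. The member 1.5-fold higher with 1 nM aldosterone than with ethanol, Edn1, left 0 with the pseudocount, with signals raised to the filter, with the filter at the 75th percentile and at 2-fold. Its log2 difference was then 0.51 with the pseudocount and 0.49 with raised signals. At 2-fold the count for 100 nM against ethanol and against 1 nM was also 0. With the second brightest probe set, which Plau, Plat and Ece1 have, the counts higher were 0 in the comparisons with ethanol at each dose and between the doses, since Ccn2 and Edn1 have 1 probe set. The counts lower were then 1 for 100 nM against ethanol (Plau, -0.84), 1 for spironolactone against 100 nM alone (Ece1, -1.11), 1 between the doses (Plau, -0.85) and 2 for spironolactone against ethanol (Plau and Ece1). Of the 6977 genes that entered and have a second probe set, 640, 692, 647 and 694 were lower in these comparisons, in that order. At 1 nM and 100 nM against ethanol and between the doses 626, 593 and 574 of them were higher. The member counts are too few to set apart from these. With the median over probe sets 1 member was lower for spironolactone against ethanol (Ece1, -0.76), where the brightest probe set was higher by 0.53. Of all 11057 genes 465 were then lower in that comparison, where 225 are reported. Of 165 member differences 157 kept their side of 1.5-fold and 2, both of Edn1, fell short of it. The second Plau probe set passed it with the same sign in 3 comparisons (-0.84, -0.85 and -0.59), and Ece1 passed it with the sign turned in 3: -0.76 for spironolactone against ethanol with the median and with the second probe set, and -1.11 for spironolactone against 100 nM alone with the second. Ccn2 and Edn1, the members past 1.5-fold as reported, have 1 probe set, so no other could turn them. Of 250 counts over gene lists 206 stayed within 1.5 times the reported count. With the median over probe sets 3 urokinase receptor partners were past 1.5-fold for 100 nM against ethanol, where 0 are reported, and 3 matrix genes at each dose, where 1 is. Over all 11057 genes 466 were then higher and 393 lower at 100 nM, where 264 and 190 are reported. At 1 nM 451 were higher and 391 lower, where 289 and 229 are reported. Dim signals limit Edn1, the second Plau probe set and the lesser Ece1 probe sets, which have no detection calls here.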
